A study of Mus musculus with 2 samples.

Results

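Ccl1, Ccl3, Ccl4, Ccl5 and Xcl1 encode the chemokines of CC and XC type that lymphocytes release, and they were taken by gene symbol as 5 of the 31053 features measured in both libraries. All 5 symbols were present. Single-cell RNA sequencing of 3′ transcript tags was applied to cells sorted as innate lymphoid cells (ILCs) from lamina propria of the small intestine in C57BL/6 mice. The sort kept live CD45+ cells with CD90.2 and CD127 on their surface and without lineage markers, TCRβ or CD3. The Zfp36_KO library came from mice with both copies of Zfp36 inactivated in every cell (Zfp36-/-), and the WT library from wild-type mice. Cells of 4 mice were pooled for each genotype before encapsulation, so each genotype is 1 library with no replicate, and no test between genotypes was possible. Age and sex of the mice are not given in the labels.

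Chemokines are small secreted proteins that guide cells carrying the matching receptor. CCL3 and CCL5 bind CCR1, CCL5 also binds CCR3, CCL1 binds CCR8, and XCL1 binds XCR1, the receptor of cross-presenting dendritic cells. Natural killer cells, ILC1 and CD8 T cells are known sources of CCL3, CCL4, CCL5 and XCL1, while CCL1 is known from activated T cells and ILC2. Zfp36 encodes tristetraprolin (TTP), which binds AU-rich elements in the 3′ untranslated region (UTR) of cytokine and chemokine transcripts and promotes their decay.

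The TTP core motif TATTTAT was found once each in the annotated 3′ UTR of Ccl3, Ccl4 and Xcl1 and not in those of Ccl1 and Ccl5. The 30 bases around it are shown because they divide the 5 genes by a feature that bears on the deleted protein. They are written as DNA, 5′ to 3′ on the transcript's strand, from the GENCODE M21 transcripts on build GRCm38, and capitals mark the motif.

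Ccl3, chr11:83648002-83648031, minus strand: gtatttgtgacTATTTATtctgaaagactt

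Ccl4, chr11:83664542-83664571, plus strand: attatttctatTATTTATgttttagttata

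Xcl1, chr1:164931644-164931673, minus strand: ttataagtaataaaTATTTATtattgatga

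The motif was present in 27.5% of the 20946 annotated 3′ UTRs, whose median length is 954 bases. The 3 UTRs with a match are shorter than that, at 409 bases for Ccl3, 302 for Ccl4 and 141 for Xcl1. Those without a match measure 285 bases in Ccl1 and 199 in Ccl5. On GRCm38 the 4 CC genes lie on chromosome 11. Ccl1 (ENSMUSG00000020702) spans 82176657 to 82305690 on the minus strand and Ccl5 (ENSMUSG00000035042) spans 83525778 to 83530518 on the minus strand. Ccl3 (ENSMUSG00000000982) spans 83647844 to 83649355 on the minus strand, and Ccl4 (ENSMUSG00000018930) spans 83662584 to 83664683 on the plus strand. Xcl1 (ENSMUSG00000026573) lies on chromosome 1, from 164931644 to 164935527 on the minus strand, and overlaps Gm20743 on the opposite strand.

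The Zfp36_KO library held 3522 barcodes with 27733804 unique molecular identifiers (UMIs), and the WT library 3593 barcodes with 24721524 UMIs. After filtering, 3334 Zfp36_KO cells (median 5336.5 UMIs) and 3360 WT cells (median 5292.5 UMIs) were kept. The libraries shared 2 barcodes. Classes were gated on marker UMIs, and no chemokine served as a marker. ILC1/NK cells (genes such as Tbx21, Ncr1 and Klrb1c) numbered 134 in Zfp36_KO and 131 in WT. NCR+ ILC3 (ILC3 genes such as Il23r and Kit, with Ncr1) numbered 311 and 319, ILC2 (genes such as Gata3, Il17rb and Klrg1) 918 and 449, and ILCs with Cpne7 and Acbd7 UMIs 78 and 60, Zfp36_KO first in each pair. CCR6+ ILC3, with 218 Zfp36_KO and 294 WT cells, served as background, as a class that should lack these chemokines. CD8 T cells, which the sort should have left out, numbered 2 in Zfp36_KO and 135 in WT, and other cells with T cell receptor complex transcripts 59 and 1031. A CD8 T ratio between libraries was therefore not formed.

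Markers bore out the class names with limits. The median cell had 4 of 10 ILC1/NK genes in Zfp36_KO and 5 in WT in the ILC1/NK gate, against 2 and 3 in NCR+ ILC3 and 0 and 0 in ILC2. The natural killer genes Klra4 and Klra8 were at 0 in the Zfp36_KO ILC1/NK cells. Cells with Cpne7 and Acbd7 UMIs showed a median of 2 ILC1/NK genes and 3 of 8 ILC2 genes in each library, so they are named by the 2 genes only. Their gate asked for at least 2 UMIs of the pair, and 41 of 78 Zfp36_KO cells and 31 of 60 WT cells had exactly that number. Cells exactly at their gate numbered 37 and 36 of the ILC1/NK class, 21 and 57 of the NCR+ ILC3 and 130 and 62 of the ILC2, in Zfp36_KO and WT.

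Zfp36 was measured first as a check of the labels. It stood at 307 CPM (UMIs of the gene per 1000000 UMIs of the class) in Zfp36_KO and 630 CPM in WT in ILC1/NK cells, a log2 ratio of -1.04. Its log2 ratio of Zfp36_KO over WT was -2.13 in NCR+ ILC3, -0.70 in the Cpne7/Acbd7+ ILCs and -1.21 in ILC2, so residual transcript was counted in every class. The 3′ tags need not lie in the altered part of the gene. Y-linked UMIs were present in 16.0% of Zfp36_KO cells and 0.119% of WT cells, so the sex of the pooled mice and the genotype cannot be told apart for cells without such UMIs. Below, intervals are exact 95% intervals that cover counting error only, neither the spread between mice nor how unevenly cells share a transcript. In bulk sums of this kind, fewer producing cells and less RNA per producing cell are told apart only where the cells are counted.

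Without regard to genotype, the 5 transcripts fell into 2 patterns. Ccl3, Ccl4, Ccl5 and Xcl1 were carried by ILC1/NK cells, by NCR+ ILC3, by Cpne7/Acbd7+ ILCs and by T cells, which were few in Zfp36_KO, and were low in ILC2. Ccl1 had most of its UMIs in ILC2. A ratio was formed where a class had at least 50 UMIs of a gene over both libraries, and 14 of the 20 pairs of chemokine and class qualified (CD8 T cells left aside). Of these, 8 were at least 1.5-fold lower in Zfp36_KO, 4 at least 1.5-fold higher, and 2 lay within 1.5-fold.

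**Figure D1:**
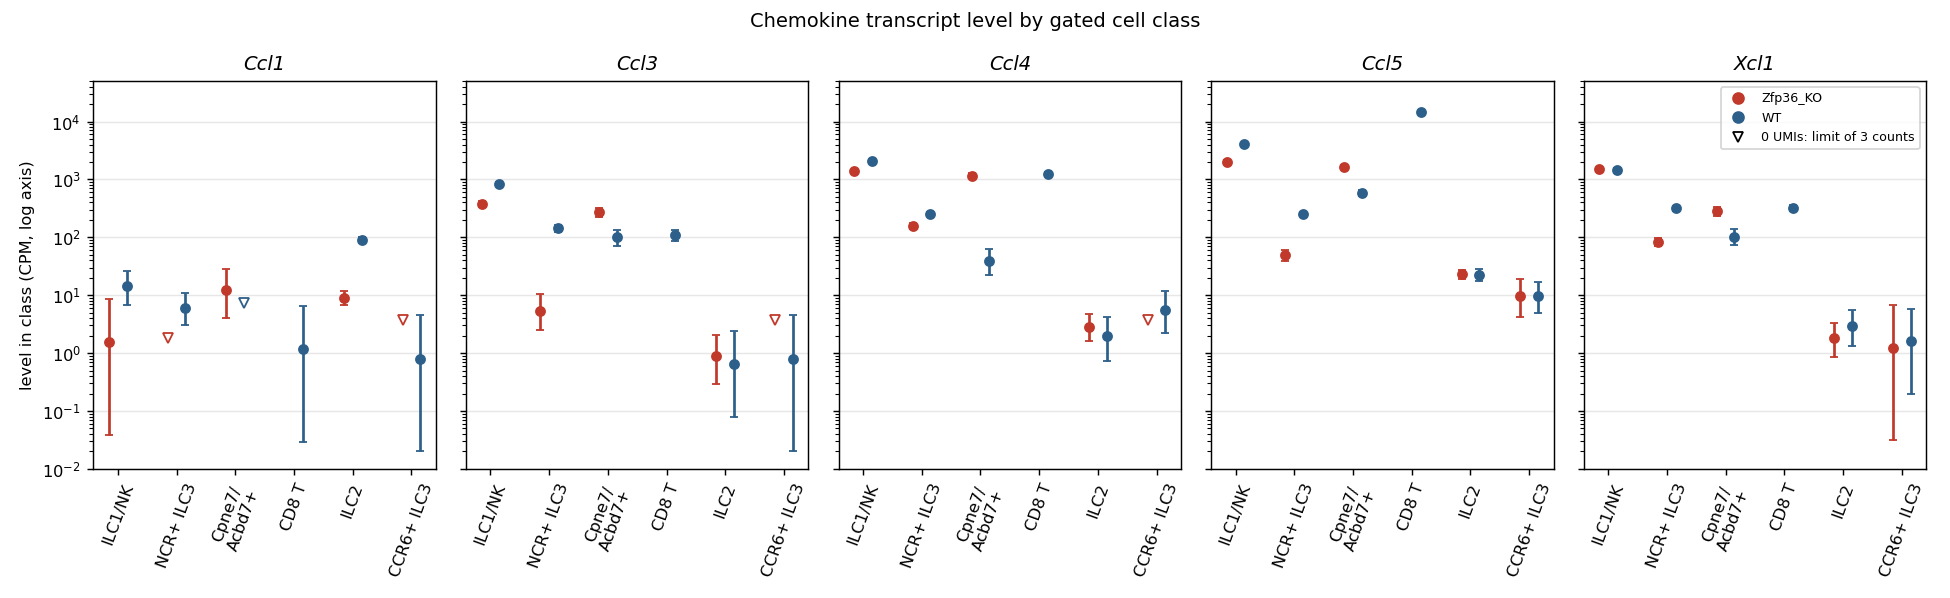
Level of each chemokine in each gated class, in CPM on a log axis, with Zfp36_KO left of WT and bars for the exact 95% counting interval. Open triangles mark 0 UMIs, drawn at the limit of 3 counts, and CD8 T cells are shown for WT only. In WT, Ccl3, Ccl4 and Xcl1 lie highest in ILC1/NK cells, Ccl5 in CD8 T cells, and Ccl1 in ILC2 at 88.5 CPM.

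In ILC1/NK cells 3 of 4 chemokines with a ratio were at least 1.5-fold lower in Zfp36_KO, where 5.44% of all 4266 measured genes of the class were, and none was higher, where 17.7% were. In NCR+ ILC3 all 4 with a ratio were lower, beside 4.02% of 7347 genes, and none higher, beside 15.3%. In Cpne7/Acbd7+ ILCs all 4 with a ratio were higher, beside 19.2% of 2474 genes, and none lower, beside 5.42%. In ILC2 1 of 2 was lower, beside 3.28% of 8763 genes, and none higher, beside 16% of them. The median log2 ratio of all measured genes was 0.15 in ILC1/NK cells, 0.15 in NCR+ ILC3, 0.12 in Cpne7/Acbd7+ ILCs and 0.17 in ILC2. The count of 4 higher ratios became 2 when cells that pass the gates of a pair of classes, left out otherwise, were counted in each class they pass.

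**Figure D2:**
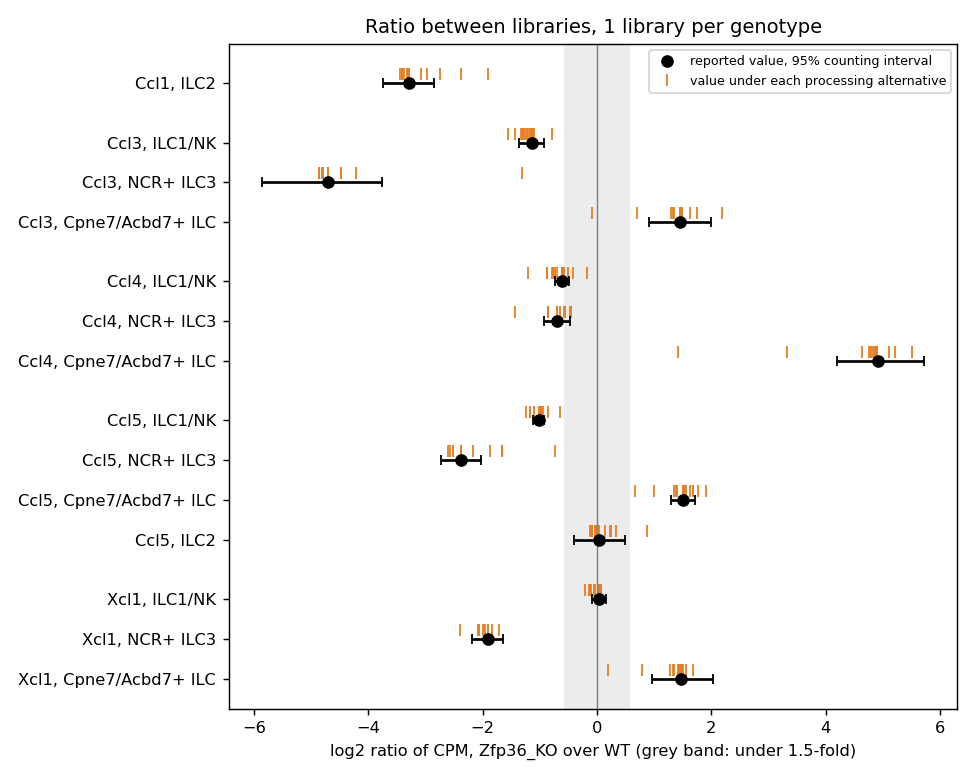
Log2 ratio of CPM, Zfp36_KO over WT, for the 14 pairs of chemokine and class with at least 50 UMIs. Black points are the reported values with their 95% counting intervals, orange ticks the values under each processing alternative, and the grey band marks under 1.5-fold. The Cpne7/Acbd7+ values lie right of 0 and the NCR+ ILC3 values left of it, and among the values past 1.5-fold 1 tick, for Ccl3 in Cpne7/Acbd7+ ILCs, crosses to -0.08.

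Ccl3 and Ccl4, which encode closely related chemokines (macrophage inflammatory proteins) side by side on chromosome 11, were both lower in ILC1/NK cells of the Zfp36_KO library. Ccl3 had 242 UMIs (375 CPM) in Zfp36_KO and 580 UMIs (827 CPM) in WT, a log2 ratio of -1.14 (-1.36 to -0.92). The UMIs came from 37 of 134 Zfp36_KO cells and 48 of 131 WT cells, and the median level among cells with a UMI was 518 CPM in Zfp36_KO and 893 CPM in WT. The richest cell held 12.8% of the class's Ccl3 in Zfp36_KO and 12.1% in WT. With each cell thinned to 2000 UMIs, 23.3% (16.3 to 31.5) of Zfp36_KO and 27.7% (20.2 to 36.2) of WT cells kept a Ccl3 UMI, so the shares of producing cells had overlapping intervals. In CCR6+ ILC3, with median depths of 3352.5 UMIs in Zfp36_KO and 4136 in WT against 4486.5 and 5145 in ILC1/NK cells, the thinned shares were 0 of 212 Zfp36_KO cells and 0.340% of WT cells. Without thinning, 0 of 218 Zfp36_KO cells had a Ccl3 UMI, which allows a share of cells with a UMI of up to 1.38%.

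Ccl4 had 888 UMIs (1376 CPM) in Zfp36_KO and 1478 UMIs (2108 CPM) in WT ILC1/NK cells, a log2 ratio of -0.62 (-0.74 to -0.49) that sits at the 1.5-fold limit. It was detected in 42 of 134 Zfp36_KO cells and 61 of 131 WT cells, and the richest cell held 23.9% of the UMIs in Zfp36_KO and 9.54% in WT. At equal depth 27.1% (19.7 to 35.7) of Zfp36_KO and 38.5% (30.1 to 47.4) of WT cells had a Ccl4 UMI. Without the richest 5% of cells the log2 ratio was -1.21. It fell short of 1.5-fold with equal weight for each cell (-0.42), with cells thinned (-0.50) and with predicted doublets kept (-0.58).

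Cells with a UMI of Trdc, the constant region of the δ chain of the T cell receptor, numbered 10 of the Zfp36_KO ILC1/NK cells (7.46%) and 23 of the WT ones (17.6%). They held 10.7% of Ccl3, 0.901% of Ccl4, 4.49% of Ccl5 and 15.5% of Xcl1 UMIs of the class in Zfp36_KO, against 38.1%, 35.6%, 34.8% and 24.0% in WT. Without them the log2 ratio was -0.79 for Ccl3, -0.17 for Ccl4 and -0.64 for Ccl5. The Ccl4 difference thus did not pass 1.5-fold in cells without Trdc.

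NCR+ ILC3, gut ILCs that combine an ILC3 program with natural killer receptors, had Ccl3 mostly in WT. There were 9 Ccl3 UMIs (5.42 CPM) in 5 of 311 Zfp36_KO cells and 257 UMIs (142 CPM) in 21 of 319 WT cells, a log2 ratio of -4.71 (-5.86 to -3.76). No Zfp36_KO cell had more than 3 UMIs, while the richest WT cell had 75 and 6 WT cells had at least 10. At equal depth 0.647% (0.0785 to 2.32) of Zfp36_KO cells had a UMI, which is not above the CCR6+ ILC3 background, and 3.14% (1.52 to 5.71) of WT cells.

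That value rests on leaving out cells with markers of other cell types. Cells so marked in this gate numbered 32 in Zfp36_KO and 21 in WT. They carried 105 Ccl3 UMIs in Zfp36_KO and 5 in WT, and macrophage genes at 6857 CPM in Zfp36_KO and 1034 CPM in WT. With them kept the log2 ratio was -1.31. The macrophage list stood at 15.1 CPM in Zfp36_KO and 15.5 CPM in WT in the NCR+ ILC3 as gated, with 6 of 7 genes detected in each.

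Ccl4 in NCR+ ILC3 had 258 UMIs (155 CPM) in Zfp36_KO and 458 UMIs (253 CPM) in WT, a log2 ratio of -0.70 (-0.93 to -0.48). In Zfp36_KO 9 cells held all of it and 1 of them 51.9%, while in WT 28 cells did and the richest held 20.1%. The ratio was -1.44 without the richest cell of each library. It lay within 1.5-fold at -0.46 under the stricter gate, at -0.46 without cells with a Y-linked UMI, at -0.47 with cells of other marker types kept, at -0.57 with equal weight for each cell and at -0.56 with cells thinned, so the size of this difference is set by a few cells.

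In Cpne7/Acbd7+ ILCs the same pair pointed the other way. Ccl3 had 111 UMIs (271 CPM) in 8 of 78 Zfp36_KO cells and 41 UMIs (99.4 CPM) in 7 of 60 WT cells, a log2 ratio of 1.45 (0.92 to 2.0). One Zfp36_KO cell held 69 of the 111 UMIs, or 62.2%, and without the richest cell of each library the log2 ratio was 0.69. Ccl4 had 476 UMIs (1160 CPM) in 12 Zfp36_KO cells and 16 UMIs (38.8 CPM) in 4 WT cells, a log2 ratio of 4.90 (4.19 to 5.72). Its richest cell held 206 UMIs, or 43.3%, in Zfp36_KO and 10 UMIs, or 62.5%, in WT, and leaving both out gave 5.51. The second richest Zfp36_KO cell held 148 UMIs, and the 4 richest together held 90.1% of the UMIs. Without the richest 5% of cells of each library, under 50 Ccl4 UMIs were left and no ratio was formed. The share of cells with a UMI at equal depth had overlapping intervals for both genes, at 10.3% in Zfp36_KO and 10.0% in WT for Ccl3, and at 10.3% (4.53 to 19.2) in Zfp36_KO and 3.33% (0.406 to 11.5) in WT for Ccl4.

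The size of the Cpne7/Acbd7+ ratios, and for Ccl3 the direction, depends on cells that also pass another gate and were counted in neither class. Cells that also pass the ILC1/NK gate numbered 14 in Zfp36_KO and 20 in WT. Those cells carried 3 Ccl3, 6 Ccl4, 201 Ccl5 and 19 Xcl1 UMIs in Zfp36_KO, against 96, 188, 250 and 94 in WT. With them and the 48 Zfp36_KO and 57 WT cells that pass the ILC2 gate counted in, the log2 ratio was -0.08 for Ccl3, 1.42 for Ccl4, 1.0 for Ccl5 and 0.19 for Xcl1. With 1 more gene demanded by every gate at once, which here meant both Cpne7 and Acbd7, the class held 40 Zfp36_KO and 41 WT cells and the values were 2.19, 3.32, 0.66 and 0.78. Cells that pass the gates of a pair of classes in the usual gating can enter the class there, and it has fewer cells per library than the 50 otherwise asked for.

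**Figure D3:**
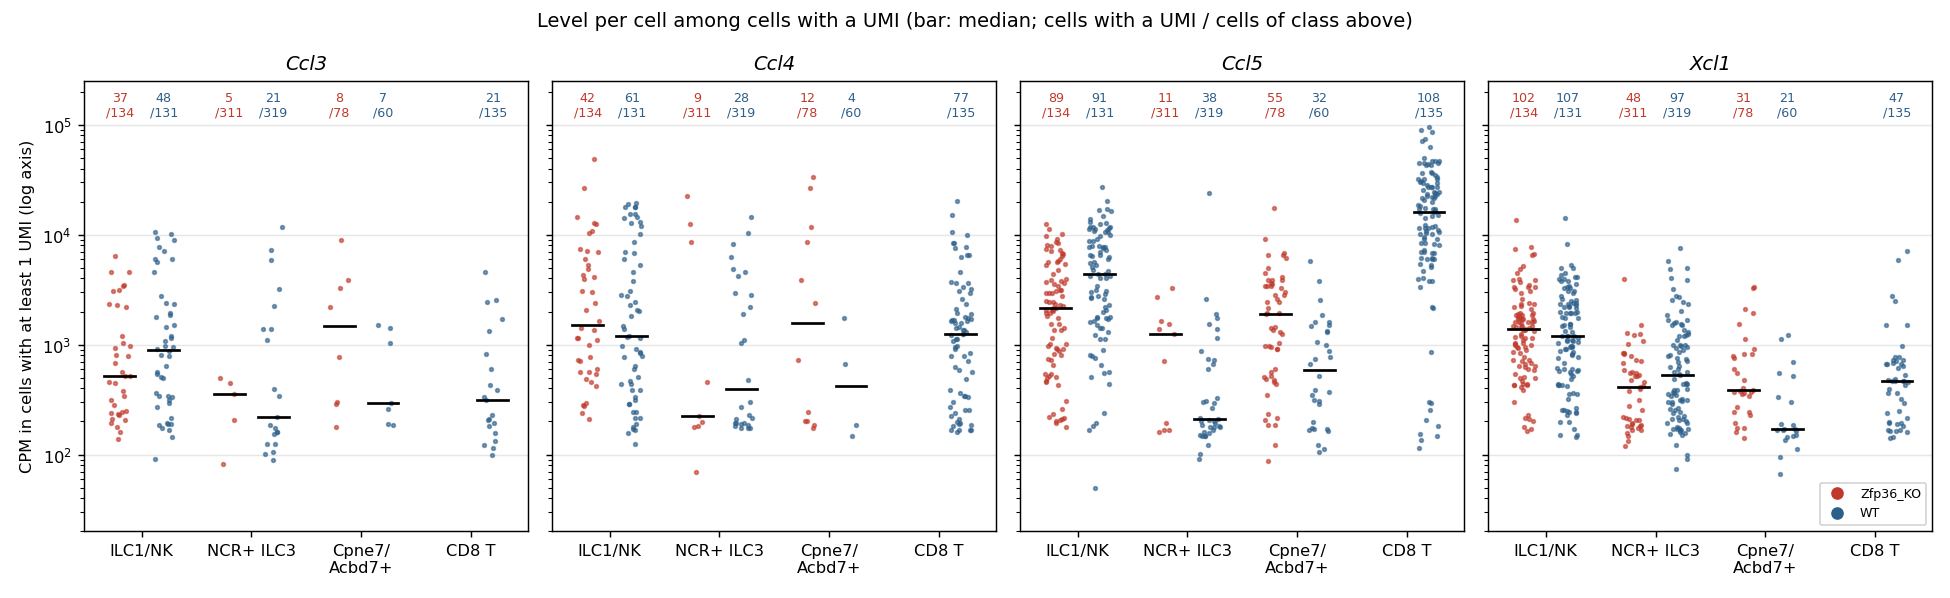
Level per cell, in CPM on a log axis, of Ccl3, Ccl4, Ccl5 and Xcl1 in the cells of each class with at least 1 UMI, Zfp36_KO left of WT. Bars are medians, and the numbers at the top give cells with a UMI over cells of the class. The Zfp36_KO NCR+ ILC3 hold 5 cells with Ccl3 against 21 in WT, and 3 of their 9 cells with Ccl4 stand apart at the top.

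In WT CD8 T cells, Ccl3 was present in 21 of 135 cells (93 UMIs, 108 CPM) and Ccl4 in 77 (1087 UMIs, 1262 CPM). One of the 2 Zfp36_KO CD8 T cells had 1 Ccl3 and 3 Ccl4 UMIs and the other none. ILC2 were at background for both, with 5 Ccl3 UMIs in 918 Zfp36_KO cells and 2 in 449 WT cells, and 16 and 6 Ccl4 UMIs.

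The order of the Ccl3 levels in Zfp36_KO was ILC1/NK, Cpne7/Acbd7+ (271 CPM), NCR+ ILC3 and ILC2 (0.893 CPM). In WT it was ILC1/NK, NCR+ ILC3, CD8 T (108 CPM), Cpne7/Acbd7+ and ILC2 (0.656 CPM). The intervals of CD8 T (87.2 to 132) and Cpne7/Acbd7+ cells (71.3 to 135) overlapped there. For Ccl4, ILC1/NK cells (1287 to 1469) came first and Cpne7/Acbd7+ ILCs (1058 to 1269) next in Zfp36_KO, without overlap, and in WT the order was ILC1/NK, CD8 T, NCR+ ILC3, Cpne7/Acbd7+ and ILC2.

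Ccl5, a ligand of CCR1 and CCR3 typical of effector and memory lymphocytes, was lower in Zfp36_KO in ILC1/NK cells and NCR+ ILC3 and higher in Cpne7/Acbd7+ ILCs. In ILC1/NK cells it had 1313 UMIs (2034 CPM) in Zfp36_KO and 2884 UMIs (4113 CPM) in WT, a log2 ratio of -1.02 (-1.11 to -0.92). Nearly the same numbers of cells carried it, 89 of 134 in Zfp36_KO and 91 of 131 in WT, and the thinned shares of 57.4% (48.4 to 66.0) and 63.8% (55.0 to 72.1) had overlapping intervals. What differed was the level per cell: among cells with a UMI the median was 2142 CPM in Zfp36_KO and 4374 CPM in WT. The richest cell held 4.34% of the UMIs in Zfp36_KO and 6.17% in WT, so no single cell set the value.

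Ccl5 in NCR+ ILC3 had 81 UMIs (48.8 CPM) in 11 Zfp36_KO cells and 457 UMIs (253 CPM) in 38 WT cells, a log2 ratio of -2.37 (-2.73 to -2.03). A single WT cell held 343 of the 457 UMIs, or 75.1%. Without the richest cell of each library the log2 ratio was -0.73, with equal weight for each cell -1.66, and with cells of other marker types kept -1.66. At equal depth 1.94% (0.716 to 4.18) of Zfp36_KO and 6.60% (4.13 to 9.92) of WT cells had a UMI, beside 2.36% and 2.04% of CCR6+ ILC3. The Zfp36_KO share was thus at background. The summed Zfp36_KO level was above it, at 48.8 CPM (38.7 to 60.6) against 9.78 CPM (4.22 to 19.3) in CCR6+ ILC3.

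Cpne7/Acbd7+ ILCs had 675 Ccl5 UMIs (1646 CPM) in 55 of 78 Zfp36_KO cells and 240 UMIs (582 CPM) in 32 of 60 WT cells, a log2 ratio of 1.5 (1.29 to 1.72). Here many cells contributed, the richest holding 9.04% in Zfp36_KO and 20% in WT, and the median cell with a UMI had 1917 CPM in Zfp36_KO and 589 CPM in WT. Thinned shares were 59.0% (47.2 to 70) in Zfp36_KO and 36.7% (24.6 to 50.1) in WT.

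Ccl5 of ILC2 differed between libraries by less than its counting interval, with 130 UMIs (23.2 CPM) in Zfp36_KO and 69 UMIs (22.6 CPM) in WT, and a log2 ratio of 0.04 (-0.39 to 0.48). On thinned cells 68 UMIs in Zfp36_KO and 18 in WT gave 0.88. Its thinned shares of 3.08% in Zfp36_KO and 3.60% in WT had intervals that overlapped those of CCR6+ ILC3. The summed level was above that class, at 23.2 CPM (19.4 to 27.6) against 9.78 CPM (4.22 to 19.3) in Zfp36_KO and 22.6 CPM (17.6 to 28.6) against 9.66 CPM (4.99 to 16.9) in WT.

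Most Ccl5 of the WT library lay outside ILCs. WT CD8 T cells held 12536 UMIs (14555 CPM, 47.8% of all Ccl5 in kept cells), spread over 108 of 135 cells, and other T cells held 29.7%. The 2 Zfp36_KO CD8 T cells had 0 and 257 Ccl5 UMIs, and the 59 other T cells 12.4% of that library's Ccl5. Other T cells stood at 1725 CPM in Zfp36_KO and 1364 CPM in WT, a log2 ratio of 0.34. Summed over all kept cells Ccl5 was 184 CPM in Zfp36_KO and 1103 CPM in WT, a log2 ratio of -2.58, in libraries with 2 and 135 CD8 T cells and 59 and 1031 other T cells. The Ccl5 level of CCR6+ ILC3 was 9.78 CPM in Zfp36_KO and 9.66 CPM in WT. In WT the order of Ccl5 levels was CD8 T, ILC1/NK, Cpne7/Acbd7+, NCR+ ILC3 and ILC2, with no overlap of neighbours, and in Zfp36_KO ILC1/NK, Cpne7/Acbd7+, NCR+ ILC3 and ILC2.

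**Figure D4:**
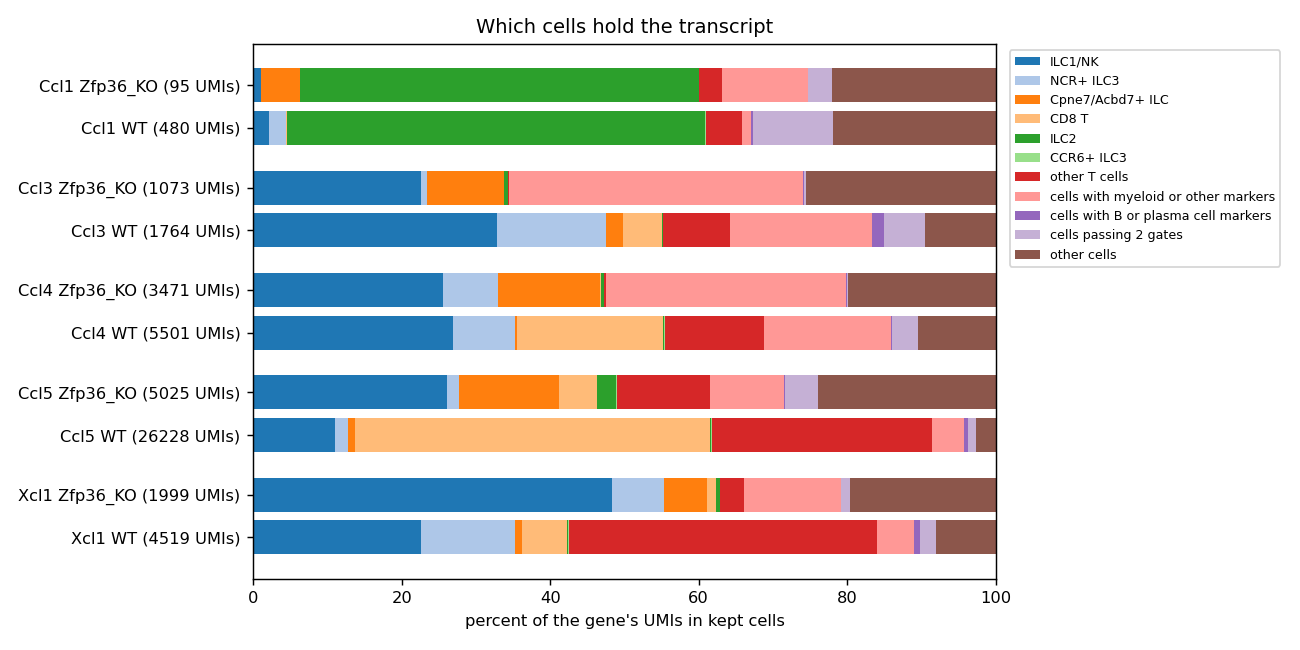
Share of each chemokine's UMIs, in percent of all UMIs of that gene in kept cells, held by each gated class and by the cells outside the classes, with Zfp36_KO above WT for each gene. CD8 T and other T cells make up 47.8% and 29.7% of WT Ccl5, and ILC2 hold 53.7% of Ccl1 in Zfp36_KO and 56.2% in WT.

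Xcl1, the ligand that draws XCR1+ dendritic cells, was the one chemokine of the ILC1/NK cells that stood level between libraries. It had 966 UMIs (1497 CPM) in Zfp36_KO and 1024 UMIs (1460 CPM) in WT, a log2 ratio of 0.04 (-0.09 to 0.16). It was detected in 102 of 134 Zfp36_KO cells and 107 of 131 WT cells, with thinned shares of 68.2% (59.4 to 76.1) and 70.8% (62.2 to 78.4). The median cell with a UMI had 1380 CPM in Zfp36_KO and 1188 CPM in WT. Relative to the median of all genes the log2 ratio was -0.11, so its sign follows the scaling.

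In NCR+ ILC3, Xcl1 was lower in Zfp36_KO, with 139 UMIs (83.7 CPM) against 570 UMIs (315 CPM) in WT and a log2 ratio of -1.91 (-2.19 to -1.64). Of the NCR+ ILC3 ratios it rested on the largest number of cells, 48 of 311 in Zfp36_KO and 97 of 319 in WT. The thinned shares were 8.41% (5.57 to 12.1) in Zfp36_KO and 22.6% (18.2 to 27.6) in WT, beside 0 and 0.680% of CCR6+ ILC3. The richest cell held 11.5% in Zfp36_KO and 6.49% in WT, and the ratio stayed between -2.39 and -1.71 under the 15 alternatives.

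Cpne7/Acbd7+ ILCs had 116 Xcl1 UMIs (283 CPM) in 31 Zfp36_KO cells and 42 UMIs (102 CPM) in 21 WT cells, a log2 ratio of 1.47 (0.95 to 2.02). Their thinned shares of 28.2% (18.6 to 39.5) in Zfp36_KO and 16.7% (8.29 to 28.5) in WT had overlapping intervals. WT CD8 T cells had 272 UMIs (316 CPM) in 47 of 135 cells, and the 2 Zfp36_KO CD8 T cells 25 and 0 UMIs. Other T cells held 3.25% of all Xcl1 in Zfp36_KO and 41.5% in WT. ILC2 had 10 Xcl1 UMIs in Zfp36_KO and 9 in WT, with 8 of the 10 in 1 cell. In WT the levels of NCR+ ILC3 (290 to 342) and CD8 T cells (279 to 356) did not differ beyond their intervals.

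Ccl1, the ligand of CCR8, was rare here and had most of its UMIs in ILC2. Its Zfp36_KO level in ILC2, 9.11 CPM (6.79 to 12.0), was not above the 12.2 CPM (3.96 to 28.4) of Cpne7/Acbd7+ ILCs, which rests on 5 UMIs. In WT it was 88.5 CPM in ILC2 against 0 UMIs in Cpne7/Acbd7+ ILCs. Cells passing the gates of both these classes were counted in neither. They held 3 Ccl1 UMIs in 48 Zfp36_KO cells and 52 in 57 WT cells, with 42 of the 52 in 1 cell. ILC2 held 51 UMIs (9.11 CPM) in 18 of 918 Zfp36_KO cells and 270 UMIs (88.5 CPM) in 30 of 449 WT cells, a log2 ratio of -3.28 (-3.74 to -2.84). A single WT cell held 165 UMIs, or 61.1%, and the richest Zfp36_KO cell 14 UMIs, or 27.5%. The log2 ratio was -2.38 without the richest cell of each library and -1.90 where 1 more ILC2 gene was demanded, a gate that left 50 Zfp36_KO and 104 WT UMIs. The median cell with a UMI had 1 UMI in each library. At equal depth the share of cells with a Ccl1 UMI was 1.10% (0.528 to 2.01) in Zfp36_KO and 3.60% (2.07 to 5.79) in WT, beside 0 of 212 and 0 of 294 CCR6+ ILC3.

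In the other ILC classes with a ratio for any chemokine, Ccl1 was sparse and no ratio was formed. There were 1 and 10 UMIs in ILC1/NK cells, 0 and 11 in NCR+ ILC3, and 5 and 0 in Cpne7/Acbd7+ ILCs, in Zfp36_KO and WT. A count of 0 allows a share of cells with a UMI of up to 0.965% in the Zfp36_KO NCR+ ILC3 and of up to 5% in the WT Cpne7/Acbd7+ cells, which does not limit the share of cells expressing the gene. Cells without a class held 21 Ccl1 UMIs (5.41 CPM) in Zfp36_KO and 105 UMIs (43.8 CPM) in WT, a log2 ratio of -3.02, so Ccl1 was lower in Zfp36_KO among them too. The richest of these cells held 10 UMIs, or 47.6%, in Zfp36_KO and 52 UMIs, or 49.5%, in WT.

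Cells outside the classes carried part of the other chemokines as well. Cells with macrophage, dendritic or similar markers, 495 in Zfp36_KO and 272 in WT, held 39.7% of Ccl3 and 32.3% of Ccl4 in Zfp36_KO and 19.1% and 17.1% in WT. Ccl3 in them stood at 47.2 CPM in Zfp36_KO and 113 CPM in WT, a log2 ratio of -1.26, and Ccl4 at 124 and 316 CPM, a log2 ratio of -1.34. Cells without a class, 905 in Zfp36_KO and 472 in WT, held 25.5% of Ccl3 and 23.9% of Ccl5 in Zfp36_KO. The WT shares were 9.58% and 2.71%. Unlike for Ccl1, their log2 ratios lay within 1.5-fold, at 0.0015 for Ccl3, -0.45 for Ccl4, 0.06 for Ccl5 and -0.58 for Xcl1. Over all kept cells each of the 5 chemokines was at least 1.5-fold lower in Zfp36_KO, beside 7.5% of 12187 genes, with log2 ratios of -2.54 for Ccl1, -0.92 for Ccl3, -0.86 for Ccl4, -2.58 for Ccl5 and -1.37 for Xcl1. These sums mix the levels within classes with the makeup of the libraries, and the part of each was not tested. CD8 T and other T cells numbered 2 and 59 in Zfp36_KO against 135 and 1031 in WT. In WT they held 47.8% and 29.7% of Ccl5 and 6.02% and 41.5% of Xcl1. Their WT shares were 0.208% and 4.79% for Ccl1, 5.27% and 8.96% for Ccl3, and 19.8% and 13.3% for Ccl4. Within the Cpne7/Acbd7+ ILCs as gated the direction was the opposite for the 4 chemokines with a ratio. With cells passing a pair of gates counted in, Ccl4 (1.42) and Ccl5 (1.0) stayed higher there. Ccl3 (-0.08) and Xcl1 (0.19) then lay within 1.5-fold.

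Detection of more than 1 chemokine in the same cell was common in ILC1/NK cells and rare in ILC2. Whether it went beyond the overlap of genes that are each found in many cells was not tested. In ILC1/NK cells 111 of 134 Zfp36_KO cells (82.8%) and 117 of 131 WT cells (89.3%) had at least 1 of the 5. Of the cells with Ccl3, 62.2% in Zfp36_KO and 77.1% in WT also had Ccl4, and of those with Ccl4, 54.8% and 60.7% had Ccl3. Ccl5 and Xcl1 were both present in 80 Zfp36_KO and 85 WT ILC1/NK cells. In NCR+ ILC3 58 Zfp36_KO cells (18.6%) and 129 WT cells (40.4%) had any of the 5, and Ccl3 and Ccl4 met in 2 and 8 cells. In ILC2 Ccl1 and Ccl5 met in 0 Zfp36_KO cells and 1 WT cell. These shares depend on depth, since a cell with more UMIs shows more genes.

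ILC1/NK cells with an Xcl1 UMI had less Zfp36 than those without one in each library, at 217 against 651 CPM in Zfp36_KO and 537 against 1096 CPM in WT. Between cells with and without Ccl5 it stood at 260 against 398 CPM in Zfp36_KO and 516 against 925 CPM in WT. For Ccl3 and Ccl4 the libraries differed in direction: Zfp36 was 321 against 301 CPM for Ccl3 and 325 against 298 CPM for Ccl4 in Zfp36_KO, and 540 against 683 CPM and 447 against 793 CPM in WT. Between cells with and without Xcl1, immediate-early and heat-shock genes that respond to cell handling also differed, at 9334 against 14157 CPM in Zfp36_KO and 11853 against 16685 CPM in WT, and the median depths were 4548.5 against 3903 UMIs and 5185 against 4799 UMIs. Between libraries these handling genes summed to 10334 CPM in Zfp36_KO and 12658 CPM in WT in ILC1/NK cells, 10514 and 14093 in NCR+ ILC3, 12950 and 16146 in Cpne7/Acbd7+ ILCs and 8098 and 9614 in ILC2. They were lower in Zfp36_KO in every class, also in the Cpne7/Acbd7+ ILCs where the chemokines were higher. Their part in the chemokine differences was not tested.

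Of 14 chemokine receptors listed beside the members, those with enough UMIs numbered 5 in ILC1/NK cells, 3 in Cpne7/Acbd7+ ILCs and 5 in ILC2. In ILC1/NK cells 2 were at least 1.5-fold lower in Zfp36_KO. These were Cxcr3, the receptor of CXCL9 and CXCL10 (log2 ratio -0.63), and Ccr2, the receptor of CCL2 (-1.36). In NCR+ ILC3 Cxcr3 (-0.83) and Ccr2 (-1.30) were lower. In ILC2 3 were lower, among them Ccr8, the receptor of CCL1 (90 and 92 UMIs, 16.1 and 30.2 CPM in Zfp36_KO and WT, -0.91), with Cxcr6 (-0.65) and Ccr2 (-1.47). The gut-homing receptor Ccr9 was higher in Zfp36_KO ILC2, at 307 CPM against 134 CPM in WT (1.19). The median log2 ratio of the receptors with a value was 0.25 in ILC1/NK cells, 0.34 in Cpne7/Acbd7+ ILCs and -0.65 in ILC2.

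Of 15 other chemokines, few had enough UMIs. Cxcl10, induced by interferon, was higher in ILC1/NK cells of Zfp36_KO (1.57) and lower in its NCR+ ILC3 (-0.96), Cpne7/Acbd7+ ILCs (-3.04) and ILC2 (-1.0). In each of these classes but Zfp36_KO ILC2 its richest cell held over 20% of the UMIs, from 22.3% to 80.0%. The neutrophil-attracting Cxcl2 was lower in ILC2 (259 and 757 UMIs in Zfp36_KO and WT, -2.42), as were Cxcl1 (-1.46) and Cxcl3 (-3.06), and Ccl25, the ligand of CCR9, was higher (0.95). Cxcl1 was also lower in NCR+ ILC3 (-3.40), on 4 and 46 UMIs. Cxcl2 in ILC1/NK cells (-1.75) came from 2 cells in each library.

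Of 9 regulators, none passed 1.5-fold in ILC1/NK cells or ILC2, where 7 had a ratio in each. In NCR+ ILC3 Nfkbia, the feedback inhibitor of NF-kB, stood at 1333 CPM in Zfp36_KO and 2476 CPM in WT (-0.89). Nr4a1, an early gene of receptor signalling (-0.59), and Zfp36l2, a relative of Zfp36 (-0.60), were also lower there, while the NF-kB subunit gene Rel was higher (0.72). In Cpne7/Acbd7+ ILCs Nfkbia stood at 2621 CPM in Zfp36_KO and 1648 CPM in WT (0.67). Tnfaip3, another NF-kB inhibitor, was higher (0.86), and Zfp36l1, the other relative of Zfp36, lower (-0.78). Nfkbia was thus lower in the class where the 4 chemokines were lower and higher in the class where they were higher. In ILC1/NK cells, where 3 chemokines were lower, Nfkbia stood at 1912 CPM in Zfp36_KO and 2014 CPM in WT (-0.08). It also lay within 1.5-fold in ILC2 (-0.44). The part of Nfkbia in the chemokine differences was not tested.

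Over 10 points, 5 classes in each of 2 libraries, the genes whose log2(CPM + 1) ran closest to each chemokine among 7211 candidates were named by Pearson's r as a description. The points share libraries, and the Zfp36_KO CD8 T point rests on 2 cells. Hcst, an adaptor of activating receptors (r = 0.95), Xcl1 (0.89) and Gimap6 (0.89) ran closest to Ccl3, and Ensa (0.94), Fasl (0.94) and Litaf (0.93) to Ccl4. For Ccl5 they were Ms4a4b (0.97), Arhgap9 (0.96) and Tesc (0.94), and for Xcl1 Ndfip1 (0.98), Cd48 (0.98) and Fasl (0.98), the gene of Fas ligand. The closest to Ccl1 were 4930523C07Rik (0.77), Ube2l6 (0.76) and Erp29 (0.74), and its r with the other 4 chemokines lay between -0.47 and -0.24.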

How the data were processed

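Sorted cells of 1 Zfp36_KO and 1 WT library were measured with a droplet kit for 3′ tags, labelled as 3′ v2. The deposited values are raw counts of UMIs per gene and cell barcode, made with Cell Ranger 3.1.0 per the file headers, on build mm10 per the submitters' processing notes. The annotation release used for counting is not given in the sources used here, and genes and UTRs were taken from GENCODE M21 (GRCm38) by gene identifier.

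Barcodes with under 500 genes or over 10% mitochondrial UMIs and doublets predicted by Scrublet (scanpy 1.11.5; 5 in Zfp36_KO, 0.150%, and 37 in WT, 1.09%) were left out. ILC gates allowed at most 1 UMI over Cd3e, Cd3d, Cd3g and Trac, and T cells had at least 2 of these genes. ILC1/NK cells had at least 3 of 10 list genes and no Il23r, Il17rb or Il1rl1. NCR+ ILC3 had at least 3 of 6 ILC3 genes, among them Il23r or a further marker, and Ncr1, but no Ccr6, Il17rb or Il1rl1. ILC2 had at least 3 of 8 genes and no Il23r or Ncr1. Cpne7/Acbd7+ ILCs had at least 2 UMIs of the pair and no Il23r, and CD8 T cells at least 2 UMIs of Cd8a and Cd8b1. That marker, also absent wherever Il23r had to be, is not reported here. Cells passing the gates of a pair of classes (62 in Zfp36_KO, 77 in WT) were left out, as were cells with at least 2 macrophage, mast cell, neutrophil, epithelial or stromal genes or at least 3 dendritic, B or plasma cell genes.

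UMIs were summed per class and library and given as CPM with exact Poisson intervals. Log2 ratios carry exact 95% binomial intervals, need at least 50 UMIs and 50 cells per library, and count as different at 1.5-fold. Shares of cells have Clopper-Pearson intervals after thinning to 2000 UMIs; for 0 counts the limit is 3 counts. In data simulated from the ILC1/NK sums (4266 genes, Poisson error only), the true ratio lay inside 96.1% of the intervals of genes left alone, and the interval was on the right side of 0 for 86.0% of genes changed 2-fold.

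Named are the 5 members, Zfp36, genes of the receptor, chemokine and regulator lists past 1.5-fold, and the 3 genes closest to each member by correlation among those with at least 200 UMIs. Members and lists were chosen with earlier results of these data known. Gate thresholds and the exclusion of cells with other markers were set after the cells had been examined, and the chemokine values had been seen for both versions of the Cpne7/Acbd7 gate.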

Additional observations from a re-analysis of the deposited data

Results flagged for a closer look

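The direction of a chemokine ratio differed between classes for 4 genes; whether the classes differ was not tested, since each genotype is 1 library. Ccl3 had a log2 ratio of Zfp36_KO over WT of 1.45 in Cpne7/Acbd7+ ILCs, against -1.14 in ILC1/NK cells and -4.71 in NCR+ ILC3. Ccl4 had 4.90 in Cpne7/Acbd7+ ILCs, against -0.62 in ILC1/NK cells and -0.70 in NCR+ ILC3. Ccl5 had 1.5, -1.02 and -2.37 in these 3 classes. Xcl1 had 1.47 in Cpne7/Acbd7+ ILCs and -1.91 in NCR+ ILC3.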

How the results depend on the processing

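Each ratio was recomputed under up to 15 alternatives, of which 2 (keeping cells with markers of other types, leaving out cells with Trdc) were chosen after seeing the data. Of 199 recomputed log2 ratios, 154 lay inside the reported interval, 44 lay outside without turning a difference round, and 1 turned; the cause was not tested.

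With cells passing a pair of gates counted in each class, Cpne7/Acbd7+ ILCs had Ccl3 at -0.08 (turned), Ccl4 1.42, Ccl5 1.0 and Xcl1 0.19, and ILC1/NK cells Ccl5 at -0.85. With 1 more marker gene demanded, Cpne7/Acbd7+ ILCs had 2.19 (Ccl3), 3.32 (Ccl4), 0.66 (Ccl5) and 0.78 (Xcl1), ILC1/NK Ccl3 was -1.56, NCR+ ILC3 Ccl4 -0.46 and ILC2 Ccl1 -1.90. Without the richest cell, Ccl1 in ILC2 was -2.38, Ccl3 in Cpne7/Acbd7+ ILCs 0.69, Ccl4 -0.87 in ILC1/NK cells and -1.44 in NCR+ ILC3, and Ccl5 in NCR+ ILC3 -0.73. Without the richest 5% of cells, ILC1/NK Ccl4 was -1.21, Cpne7/Acbd7+ Ccl5 1.91 and NCR+ ILC3 Xcl1 -2.39. With equal weight for each cell, ILC2 Ccl1 was -2.74, ILC1/NK Ccl4 -0.42, Cpne7/Acbd7+ Ccl5 1.76 and NCR+ ILC3 Ccl5 -1.66. In ILC1/NK cells, relative to the median of all genes and with TMM library sizes, Ccl4 was -0.77 and -0.77, Ccl5 -1.17 and -1.17, and Xcl1 -0.11 and -0.12. Without cells with a Y-linked UMI, Ccl4 was -0.88 in ILC1/NK cells and -0.46 in NCR+ ILC3, and ILC1/NK Xcl1 -0.14. On thinned cells, Ccl5 was 0.88 in ILC2 and -1.87 in NCR+ ILC3. With cells of other marker types kept, ILC1/NK cells had -1.43 (Ccl3), -0.79 (Ccl4), -1.24 (Ccl5) and -0.21 (Xcl1), and NCR+ ILC3 -1.31 (Ccl3), -0.47 (Ccl4) and -1.66 (Ccl5). Without cells with Trdc, ILC1/NK cells had -0.79 (Ccl3), -0.17 (Ccl4) and -0.64 (Ccl5).

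The count of ratios at least 1.5-fold higher in Zfp36_KO, 4 as reported, was 2 with cells of a pair of gates counted in each, 2 without the richest 5% of cells (7 ratios left to form) and 2 where 200 UMIs were asked for (11 ratios). The count of lower ones, 8 as reported, was 4 without the richest 5%. Of 24 shares of cells, 14 lay above the thinned interval when cells were not thinned, and with all barcodes the 24 richest-cell shares stayed inside their 95% binomial intervals.

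With 1 library of pooled mice per genotype, the spread between mice is unknown, and a few cells set many of the levels. No paired analysis was possible because each genotype has 1 library.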
